A study of Mus musculus with 12 samples.

Results

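The genes described here are the myogenic regulators and muscle progenitor genes of a mouse sarcoma, followed through 4 treatment groups. They were chosen by name: the 4 myogenic regulatory factors Myf5, Myod1, Myog and Myf6, the progenitor factor Pax7, the repressor Msc, the cofactor Mef2c, the acetylcholine receptor subunits Chrna1 and Chrng, and the intermediate filament gene Des. Of these 10 genes, 9 were among the 16335 genes measured, and Pax7 was not analysed here. RNA came from frozen tumors of BVMA01R, a sarcoma cell line of genotype Myf5-Cre;p53-/-;Ass1-/- in which Cre is driven by Myf5, grown in female C57BL/6J mice. All 4 groups share this genotype and this single cell line, and each holds 3 libraries. One group was untreated. One received chloroquine, which blocks breakdown in lysosomes. One received ADI-PEG20, an enzyme coupled to polyethylene glycol that removes arginine, which cells without Ass1 cannot make for themselves. One received ADI-PEG20 + chloroquine, called both drugs below. Nothing in the labels ties a library to an animal of its own, so every p-value measures only the spread between these samples. In a bulk tumor, fewer cells of a type and less RNA per cell cannot be told apart.

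Myf5, Myod1, Myog and Myf6 are basic helix-loop-helix factors that commit cells to the skeletal muscle lineage and drive its genes. Myf5 and Myod1 act at commitment, Myog during differentiation into multinucleated fibres, and Myf6 chiefly in late differentiation and mature muscle. They bind E-boxes in the promoters and enhancers of muscle genes as dimers with E proteins, work together with MEF2 factors such as Mef2c, and are opposed by repressors such as Msc, also called MyoR. Chrna1 and Chrng encode the alpha and gamma subunits of the muscle acetylcholine receptor, of which the gamma subunit belongs to the embryonic form, and Des encodes desmin, the muscle intermediate filament that is already made in myoblasts.

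The deposited table gave 15501998 to 28410940 reads per library, and the worth of a single read ran from 0.0320 to 0.0794 CPM (the reads of a gene scaled to the size of its library). Ass1 gave 153 to 397 reads and Trp53 326 to 756 in every library, and such totals check nothing about the deleted parts of either gene. The libraries untreated 1 and ADI-PEG20 1 stood apart in RNA of mature muscle. Ckm, the muscle creatine kinase, stood at 85.3 and 80.2 CPM in them and at 0.171 to 4.11 CPM in the other 10 libraries, and Myh4, a fast myosin heavy chain of adult fibres, stood at 973 and 1036 CPM against 0.0856 to 29.9 CPM. Summed over 22 measured genes of the mature fast fibre, the levels were 6736 and 8489 CPM against 473 to 3923 CPM. Not every muscle gene set these libraries apart. Myh1, another fast myosin, stood at 64.0 and 247 CPM against 6.51 to 183 CPM, and Eno3 at 227 and 93.9 CPM against 63.1 to 153 CPM. ADI-PEG20 1 also had the highest level of the noncoding gene Gm26917, 292666 CPM against 47252 to 185126 in the other 11 libraries. Some of the results that include these libraries are given with and without them.

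The stretches before the start sites of the receptor subunits, Myog and Des are shown because their levels are compared below with those of the factors that bind E-boxes, and that of Myf5 because it held none of these letters. Each is the 250 bases immediately before the RefSeq start, taken from RefSeq on GRCm38.p6 and read 5′ to 3′ along the gene's strand, in lower case. The capitals mark each E-box, spelled CANNTG, which reads the same pattern on either strand. RefSeq promoters were matched for 7 of the 10 genes, at chr1:134289754-134290003 for Myog (plus strand), chr1:87205561-87205810 for Chrng (plus), chr2:73580339-73580588 for Chrna1 (minus), chr1:75360042-75360291 for Des (plus) and chr10:107486135-107486384 for Myf5 (minus).
Myog: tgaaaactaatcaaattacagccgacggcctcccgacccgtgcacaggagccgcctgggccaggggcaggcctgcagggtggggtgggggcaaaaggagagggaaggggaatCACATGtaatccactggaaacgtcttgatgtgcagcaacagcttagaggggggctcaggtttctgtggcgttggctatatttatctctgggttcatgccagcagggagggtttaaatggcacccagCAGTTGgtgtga
Chrng: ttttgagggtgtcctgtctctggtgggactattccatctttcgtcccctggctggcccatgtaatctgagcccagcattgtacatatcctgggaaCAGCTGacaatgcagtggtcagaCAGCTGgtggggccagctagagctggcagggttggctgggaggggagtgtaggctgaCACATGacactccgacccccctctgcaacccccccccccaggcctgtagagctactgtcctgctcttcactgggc
Chrna1: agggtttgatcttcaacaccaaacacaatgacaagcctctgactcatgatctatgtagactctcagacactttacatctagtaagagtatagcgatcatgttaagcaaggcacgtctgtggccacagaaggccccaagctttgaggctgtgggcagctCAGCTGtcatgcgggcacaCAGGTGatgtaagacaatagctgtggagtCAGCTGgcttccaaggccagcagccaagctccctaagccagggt
Des: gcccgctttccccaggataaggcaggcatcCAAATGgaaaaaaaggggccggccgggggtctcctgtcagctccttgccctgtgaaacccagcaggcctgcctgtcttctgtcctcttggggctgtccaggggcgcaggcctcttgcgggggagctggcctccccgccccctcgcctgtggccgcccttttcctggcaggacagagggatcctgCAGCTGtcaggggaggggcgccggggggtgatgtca
Myf5: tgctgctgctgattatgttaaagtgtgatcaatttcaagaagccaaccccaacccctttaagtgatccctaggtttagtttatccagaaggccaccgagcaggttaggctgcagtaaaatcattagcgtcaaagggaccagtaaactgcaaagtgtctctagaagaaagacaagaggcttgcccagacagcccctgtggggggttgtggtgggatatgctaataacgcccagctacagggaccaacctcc
Chrng held 3 E-boxes, with first bases 155, 132 and 75 bases before the start, and Chrna1 held 3, at 92, 73 and 44 bases. Myog held 2, at 138 and 12 bases before the start, and Des 2, at 220 and 36 bases. In Chrng and Chrna1, 2 of the E-boxes were spelled CAGCTG, and in Des 1 was. Among 32851 mouse promoters of the same length, 66.2% held at least 1 E-box, 31.8% at least 2 and 12.2% at least 3, while 13% held at least 1 CAGCTG and 1.26% at least 2. GENCODE M21, used below for gene positions, starts Chrng at 87204657, so the printed Chrng stretch lies inside that gene model. These are matches of letters in a short window and were not tested for binding.

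The 9 genes spanned a wide range of levels. To compare genes, CPM was divided by the length of each gene's merged exons in GENCODE M21. Des was the highest in all 12 libraries, with a median of 50.6 CPM per kb, followed by Chrna1 at 17.8, Myf5 at 13.7, Myod1 at 7.72 and Myog at 5.75. Mef2c at 2.45, Msc at 1.45, Myf6 at 1.29 and Chrng at 0.712 CPM per kb were lower. The order below Des was not fixed, and the ranges of neighbouring genes overlapped. Over the libraries Chrna1 ranked between 2 and 3, Myf5 between 2 and 5, Myod1 between 2 and 7 and Myog between 3 and 8. The merged exons of Mef2c, 15.7 kb in all, are far longer than those of the other genes, which lowers its value per kb.

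**Figure D1:**
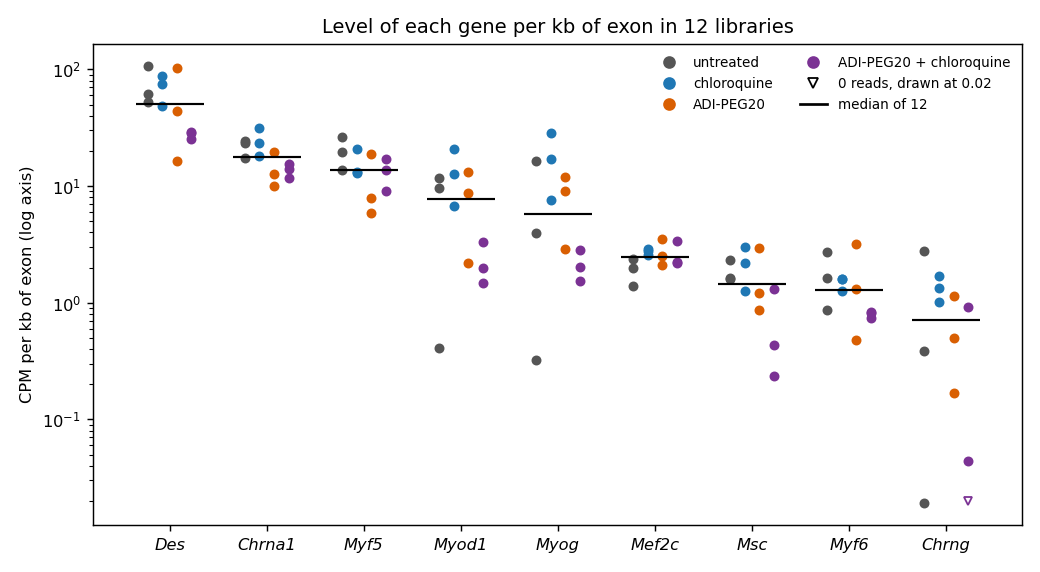
Level of each gene per kb of exon (log axis) in the 12 libraries, coloured by group, with the median as a line. Des is the highest gene in every library, while Myod1 spans 51.1-fold and Myog 88.1-fold between their lowest and highest libraries and Mef2c 2.53-fold.

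Myf5 (ENSMUSG00000000435, chromosome 10, 107482908 to 107486134, GRCm38) stood at 54.3, 40.5 and 28.6 CPM in the untreated libraries and at 26.7, 43.5 and 27.7 CPM with chloroquine. ADI-PEG20 gave 12.2, 39.4 and 16.3 CPM, and both drugs gave 28.5, 35.8 and 18.8 CPM. The lowest library, ADI-PEG20 1, and the highest, untreated 1, are those rich in mature muscle RNA, and the 4 groups overlapped. Myf5 was lower with ADI-PEG20 than without treatment by a log2 difference of -0.999 (SE 0.39, 95% confidence interval -1.84 to -0.16, limma adjusted p = 0.553). Without untreated 1 and ADI-PEG20 1 this difference was -0.43 (SE 0.41, limma adjusted p = 0.880).

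Myod1 (ENSMUSG00000009471, chromosome 7, 46376474 to 46379099), the second commitment factor, gave 0.759, 21.9 and 17.8 CPM in the untreated libraries. With chloroquine it stood at 38.8, 23.8 and 12.6 CPM, with ADI-PEG20 at 24.5, 16.1 and 4.09 CPM, and with both drugs at 3.68, 6.17 and 2.77 CPM. Untreated 1, with 19 reads, was the lowest of all 12 libraries, and all 3 libraries with both drugs lay below all 3 with chloroquine alone. The log2 difference of both drugs against chloroquine was -2.50 (SE 1.02, 95% confidence interval -4.71 to -0.30, limma adjusted p = 0.692).

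Myog (ENSMUSG00000026459, chromosome 1, 134289989 to 134292548), the differentiation factor, had the widest range of the 4 factors, from 0.479 to 42.2 CPM. Untreated libraries gave 0.479, 5.89 and 24.4 CPM, and chloroquine gave 42.2, 25.4 and 11.3 CPM. ADI-PEG20 gave 18.0, 13.5 and 4.31 CPM, and both drugs gave 3.04, 4.24 and 2.27 CPM. The 3 libraries with both drugs lay below all libraries of either single drug, while the untreated group reached from below them to within the chloroquine group. Against chloroquine, both drugs gave a log2 difference of -2.89 (SE 1.04, interval -5.12 to -0.65, limma adjusted p = 0.621). The spread of Myog over the 12 libraries, an SD of 1.81 on the log2 scale, was larger than that of 98.7% of all genes and of 99.6% of 1695 genes of like mean level.

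Myf6 (ENSMUSG00000035923, chromosome 10, 107492853 to 107494737) lies 6719 bases from Myf5 and was scarce, with 14 to 86 reads per library. Its levels were 3.44, 1.10 and 2.04 CPM in the untreated libraries, 1.60, 2.004 and 2.007 CPM with chloroquine, 4.05, 1.66 and 0.609 CPM with ADI-PEG20, and 1.03, 0.942 and 1.05 CPM with both drugs. Its highest libraries were ADI-PEG20 1 and untreated 1. Both drugs gave lower values than every untreated and every chloroquine library, with log2 differences of -0.97 (SE 0.61, limma adjusted p = 0.677) and -0.88 (SE 0.61, adjusted p = 0.822). Without untreated 1 the difference against untreated was -0.58. For these neighbouring genes r over the 12 libraries was 0.102 and rho 0.175.

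In untreated 1 the 4 factors went different ways. Myf5 was at its highest there and Myod1 and Myog at their lowest, so that Myod1 minus Myf5 was -6.12 on the log2 scale against -2.95 to 1.002 in the other 11 libraries. Myf6 exceeded Myod1 by 2.15 on the log2 scale in untreated 1 and lay 1.39 to 4.57 below it in the other 11 libraries. Embryonic myosin Myh3, at 4.71 CPM, and the fusion gene Mymk, at 0.479 CPM, were also at their lowest in untreated 1, beside the high Ckm and Myh4. In ADI-PEG20 1, by contrast, Myod1, Myog, Myh3 (261 CPM) and Mymk (24.5 CPM) were high together with Ckm and Myh4. The part of mature muscle RNA in these levels was not tested.

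**Figure D2:**
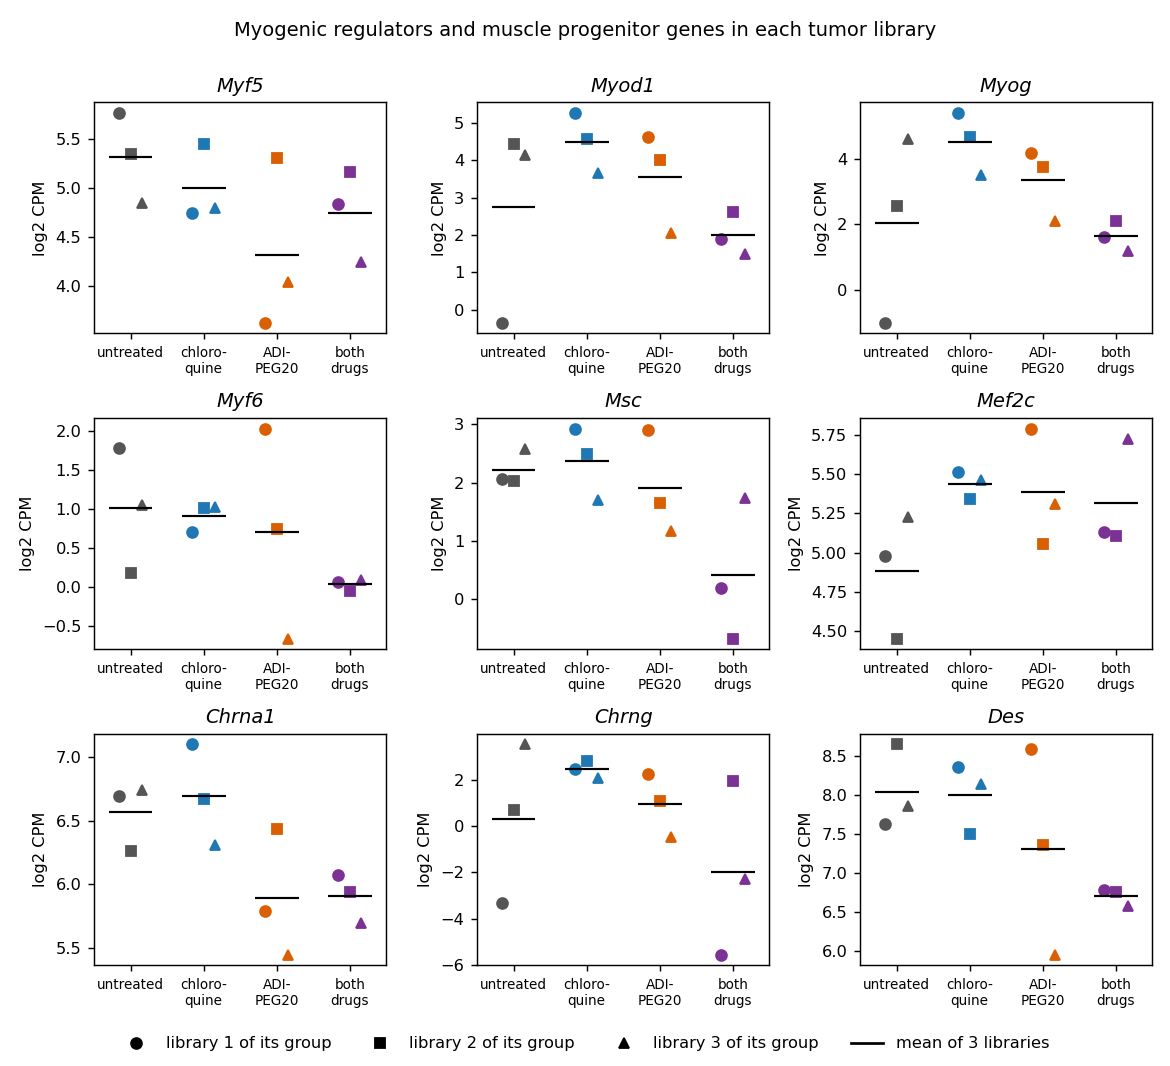
Level of each of the 9 genes (log2 CPM) in the 3 libraries of each group, with the group mean as a line. Myod1, Myog and Chrng are lowest in untreated 1 among the untreated libraries, and with both drugs Myod1, Myog and Des sit in a narrow low band (Chrng in the first library with both drugs, at -5.55, had 0 reads).

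Msc (ENSMUSG00000025930, chromosome 1, 14753346 to 14755992), the repressor, gave 4.16, 4.05 and 5.93 CPM without treatment, 7.58, 5.59 and 3.23 CPM with chloroquine and 7.47, 3.10 and 2.22 CPM with ADI-PEG20. With both drugs it gave 1.11, 0.599 and 3.32 CPM. The values with both drugs lay below all untreated values and overlapped the chloroquine group through 1 library. Msc gave log2 differences with both drugs of -1.81 against untreated (SE 0.59, limma adjusted p = 0.442) and -1.96 against chloroquine (SE 0.59, adjusted p = 0.535). The antisense gene Gm9947, which overlaps Msc on the other strand, gave 0 to 26 reads per library against 14 to 142 for Msc. The sources used here do not state whether counting used strand, so the reads of this pair cannot be told apart with certainty.

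Mef2c (ENSMUSG00000005583, chromosome 13, 83504034 to 83667080), which is also made in endothelial and immune cells, was the steadiest of the 9 genes, with 21.9 to 55.2 CPM over the 12 libraries. Its levels were 31.4, 21.9 and 37.4 CPM without treatment and 45.6, 40.5 and 44.0 CPM with chloroquine, so that all chloroquine libraries lay above all untreated ones. ADI-PEG20 gave 55.2, 33.2 and 39.7 CPM and both drugs gave 34.96, 34.3 and 52.7 CPM. Chloroquine differed from untreated by 0.55 on the log2 scale (SE 0.24, interval 0.04 to 1.07, limma adjusted p = 0.999). Mef2c was the only one of the 9 genes with a higher mean with both drugs than without treatment, by 0.43 (SE 0.24, limma adjusted p = 0.637).

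Chrna1 (ENSMUSG00000027107, chromosome 2, 73563215 to 73580338), the alpha subunit whose upstream stretch with 3 E-boxes is printed above, gave 104, 76.7 and 107 CPM in the untreated libraries and 137, 102 and 79.2 CPM with chloroquine. It gave 55.4, 86.4 and 43.6 CPM with ADI-PEG20 and 67.5, 61.4 and 51.8 CPM with both drugs. Of the 6 libraries that received ADI-PEG20, 5 lay below all 6 that did not, and ADI-PEG20 2 lay among the latter. Pooled over chloroquine, the groups with ADI-PEG20 were lower by -0.73 on the log2 scale (SE 0.18, interval -1.12 to -0.35, limma adjusted p = 0.217). By unadjusted p this ranked 90 among all genes, and without untreated 1 and ADI-PEG20 1 the difference was -0.68 (SE 0.21, limma adjusted p = 0.204). ADI-PEG20 went with a lower mean both without chloroquine (-0.68, SE 0.25) and with it (-0.79, SE 0.25), and the difference between these was -0.11 (SE 0.36, interval -0.88 to 0.66).

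Chrng (ENSMUSG00000026253, chromosome 1, 87204657 to 87212694), the embryonic subunit, was the scarcest gene per kb. Its reads were 2, 26 and 180 without treatment, 104, 151 and 87 with chloroquine, 60, 65 and 16 with ADI-PEG20, and 0, 90 and 4 with both drugs. In CPM these were 0.0799, 1.60 and 11.5, then 5.55, 7.04 and 4.26, then 4.77, 2.08 and 0.697, and lastly 0, 3.85 and 0.182. The library at 0 reads allows up to 0.128 CPM, counting 3 reads as its limit and covering counting error only. The chloroquine libraries lay close together and above all 3 with both drugs, but the untreated libraries reached from near the lowest value of the series to the highest. The log2 difference of both drugs against chloroquine, -4.43 (SE 1.72, limma adjusted p = 0.666), depends on the 0.5 read added to every count. Adding 2 reads gave -3.63, and leaving out the library at 0 reads gave -2.63 (SE 1.62, limma adjusted p = 0.912). Chrnd, the delta subunit gene that ends 4587 bases before Chrng, was among the genes most like Chrng over the libraries (r = 0.864), and ranged from 0.685 to 9.08 CPM.

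Des (ENSMUSG00000026208, chromosome 1, 75360329 to 75368579) gave 199, 403 and 232 CPM without treatment, 331, 181 and 282 CPM with chloroquine, 387, 165 and 62.0 CPM with ADI-PEG20, and 110, 108 and 95.5 CPM with both drugs. The 3 libraries with both drugs lay close together (104 ± 7.77 CPM, mean ± SD, n = 3) and lay below all untreated and all chloroquine libraries, whereas ADI-PEG20 alone spread from the lowest value of the series to nearly the highest. The log2 difference of both drugs was -1.34 against untreated (SE 0.49, limma adjusted p = 0.486) and -1.30 against chloroquine (SE 0.49, adjusted p = 0.650). Against ADI-PEG20 alone it was -0.60 (SE 0.49), and without ADI-PEG20 1 it was 0.044. The 3′ end of Des overlaps the antisense gene Gm15179, which was not analysed here, and reads of that overlap cannot be told apart either. Smooth muscle also makes desmin, and the summed level of 9 measured smooth muscle markers was 1934 to 3425 CPM without treatment, 1988 to 3358 with chloroquine, 1594 to 2163 with ADI-PEG20 and 1482 to 2112 with both drugs. Of these 9 markers, 8 were lower with both drugs than with chloroquine (48.6% of all genes), at a median log2 difference of -0.67. For 3 of them every library with both drugs lay below every chloroquine library (9.57% of all genes). For 6 the unadjusted limma p was under 0.05 as lower (3.67% of all genes). The part of these markers in the Des result was not tested.

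Adding ADI-PEG20 to chloroquine gave the most uniform difference over the genes. All 9 had a lower mean with both drugs than with chloroquine alone, where 48.6% of all genes did, and their median log2 difference was -1.30 against 0.01 for all genes. For 6 of the 9 (Myod1, Myog, Myf6, Chrna1, Chrng and Des) every library with both drugs lay below every chloroquine library, which held for 9.57% of all genes. For Chrng the nearest values were 3.85 CPM (90 reads) with both drugs and 4.26 CPM (87 reads) in chloroquine 3. Some of the genes also varied together, such as Myod1 and Myog (r = 0.947, given below), so they do not count as separate observations. For 6 of the 9 (Myod1, Myog, Msc, Chrna1, Chrng and Des) the unadjusted p was under 0.05 with a lower mean, as for 3.67% of all genes. None passed after adjustment over all genes (limma adjusted p 0.535 to 0.692 for these 6). Leaving out chloroquine 1 left 3 genes with an unadjusted p under 0.05, and the other single omissions left 4 to 6. Untreated 1 and ADI-PEG20 1 are not in this comparison, and fitting without them, which changes only the shared spread, left the count at 6. Mature muscle RNA still differed between these groups. The mature fast fibre sum was 715 to 1018 CPM with both drugs and 2843 to 3923 CPM with chloroquine, and its part in these differences was not tested. Only when the 6 libraries of these groups were fitted alone, so that the wide spread of the other groups did not enter, did Myod1 (SE 0.41, limma adjusted p = 0.0399), Myog (SE 0.44, adjusted p = 0.0333) and Des (SE 0.20, adjusted p = 0.0338) pass as lower, as 0.349% of all genes did. In the authors' deposited table the same contrast gave log2 fold changes of -2.71 for Myod1, -3.11 for Myog, -1.90 for Msc, -0.87 for Chrna1 and -1.32 for Des, with adjusted p-values of 0.120 to 0.186. For the other 4 it gave -4.79 for Chrng, -0.85 for Myf6, -0.33 for Myf5 and -0.076 for Mef2c, with adjusted p-values of 0.248, 0.432, 0.696 and 0.898.

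**Figure D3:**
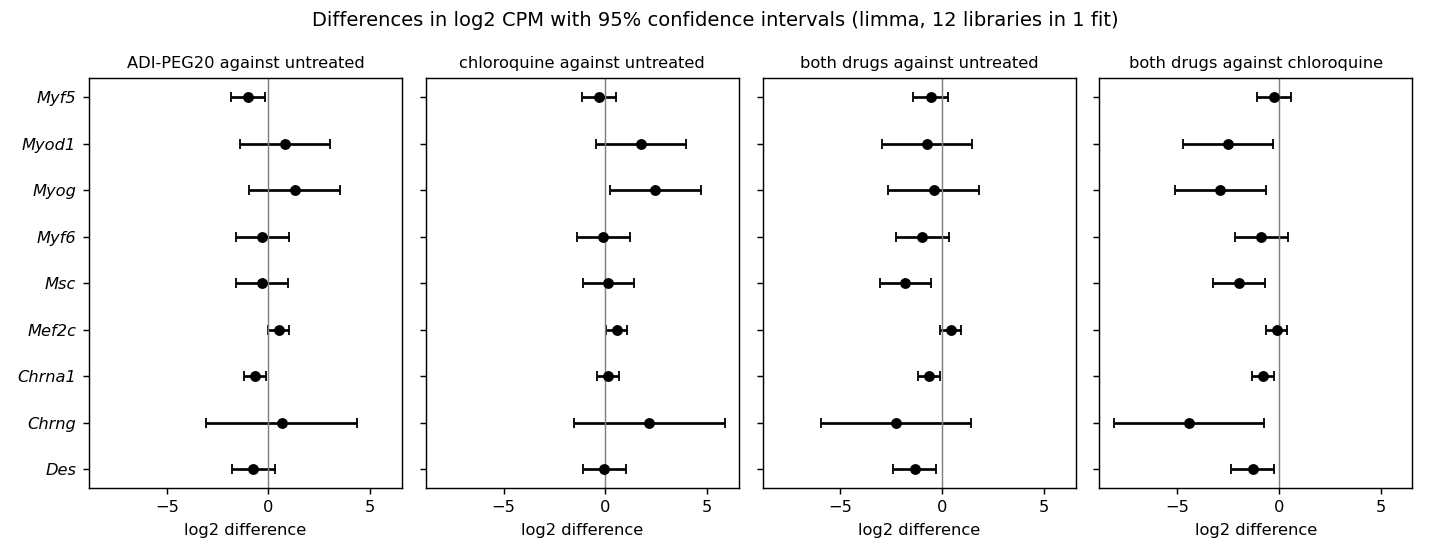
Log2 difference of each of the 9 genes in 4 comparisons (points) with its 95% confidence interval from limma (bars). In the rightmost panel all 9 points lie left of 0 and 6 intervals exclude 0 before adjustment, while in the leftmost panel the points lie on both sides.

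Both drugs against no treatment gave a similar but less uniform picture. Of the 9 genes, 8 were lower, against 49.2% of all genes, and Myf6, Msc, Chrna1 and Des did so with no overlap between groups, against 7.92% of all genes. For Myf6 the nearest values were 1.05 CPM (23 reads) with both drugs and 1.10 CPM (18 reads) in untreated 2. Msc, Chrna1 and Des had an unadjusted p under 0.05 as lower, against 3.95% of all genes, and leaving out 1 library gave 2 to 5 such genes (5 without untreated 1, 2 without untreated 2, untreated 3 or the third library with both drugs). Myod1, at -0.75 (SE 1.02), and Myog, at -0.42 (SE 1.04), had wide errors, with untreated 1 far below the other untreated libraries. Without untreated 1 and ADI-PEG20 1 they were at -2.30 (SE 0.57, limma adjusted p = 0.247) and -1.95 (SE 0.68, adjusted p = 0.386), and 5 of the 9 genes then had an unadjusted p under 0.05. None passed after adjustment in either fit. This comparison and the one above share the libraries with both drugs.

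With ADI-PEG20 alone against no treatment, 5 of the 9 genes were lower, against 51.3% of all genes, and 4 higher, and all 9 overlapped between groups, where 4.54% of all genes were lower with no overlap. Myf5 and Chrna1 had an unadjusted p under 0.05 as lower, against 3.13% of all genes. Without untreated 1 or without ADI-PEG20 3 that count was 0. The direction of 4 genes turned without untreated 1: Myod1 stood at 0.81 (SE 1.02) and -0.75 without that library, Myog at 1.29 (SE 1.04) and -0.24, Chrng at 0.65 (SE 1.72) and -1.16, and Myf6 at -0.30 (SE 0.61) and 0.088. Without ADI-PEG20 3, Myf6 was at 0.38 and Msc, otherwise at -0.32, at 0.052. With chloroquine alone against no treatment, 6 genes were higher, against 49.3% of all genes, and 3 lower. Mef2c did not overlap between groups, against 3.69% of all genes as higher, and Mef2c and Myog had an unadjusted p under 0.05 as higher, against 2.06%. That count was 0 without untreated 1, chloroquine 1 or chloroquine 2, 1 without chloroquine 3 and 4 without untreated 3. The Myog difference there, 2.47 (SE 1.04), was 0.94 without untreated 1. Adding chloroquine to ADI-PEG20 left Myog lower with no overlap, against 4.47% of all genes, at -1.71 (SE 1.04, limma adjusted p = 0.894). The nearest libraries there, the second with both drugs and ADI-PEG20 3, held 99 Myog reads each (4.24 and 4.31 CPM). Msc was there at -1.49 (SE 0.59, adjusted p = 0.894), the 1 gene of the 9 with an unadjusted p under 0.05 as lower, against 2.01% of all genes. That count was 0 without ADI-PEG20 1 or the first library with both drugs, and 3 without untreated 1 or ADI-PEG20 3.

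Pooled over chloroquine, ADI-PEG20 went with lower means in 8 of the 9 genes, all but Mef2c, against 50.7% of all genes. Chrna1, Des (-1.02, SE 0.34), Msc (-1.14, SE 0.41) and Myf5 (-0.62, SE 0.28) had an unadjusted limma p under 0.05, against 4.38% of all genes as lower, and their adjusted p-values ran from 0.217 to 0.486. Without untreated 1 the count was 6 of 9, and the other single omissions gave 3 to 5. Without untreated 1 and ADI-PEG20 1 together it was also 6, with Myod1 at -1.89 (SE 0.40, limma adjusted p = 0.0960) and Des at -1.45 (SE 0.27, adjusted p = 0.0679). Chloroquine pooled over ADI-PEG20 gave 0 of the 9 genes an unadjusted p under 0.05, against 2.23% of all genes. The interaction, the difference between the effects of ADI-PEG20 with and without chloroquine, was -4.18 for Myog (SE 1.47) and -3.31 for Myod1 (SE 1.44), with a limma adjusted p of 0.825 for both. These were the 2 genes of the 9 with an unadjusted p under 0.05 as lower, against 2.36% of all genes, a count that ran from 1 (without untreated 1, among others) to 5 (without ADI-PEG20 3) when 1 library was left out. Without untreated 1 and ADI-PEG20 1 these were -2.24 (SE 0.96) and -1.23 (SE 0.81). Over all 16335 genes, limma passed 0 genes in each of the 8 comparisons, with 365 to 1601 genes at an unadjusted p under 0.05 and 0 genes with voom weights.

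Of the 36 pairs of the 9 genes, Myod1 and Myog were the closest over the 12 libraries, with r = 0.947 and rho = 0.923 (permutation p = 2e-05 and 5e-05, adjusted over 36 pairs 0.00072 and 0.0018). Their r was 0.871 without the 2 libraries farthest from the median of Myod1 and 0.928 after group means were removed. Chrng varied with both: r was 0.802 with Myog (rho = 0.895, permutation p = 0.00152 and 0.00028, adjusted 0.0274 and 0.00504) and 0.793 with Myod1 (rho = 0.804, permutation p = 0.00247 and 0.00266, adjusted 0.0296 and 0.0319). These were 0.792 and 0.710 without the 2 farthest libraries and 0.729 and 0.699 within groups. Myf5 gave r = -0.142 with Myod1 and -0.220 with Myog, but 0.606 and 0.388 without untreated 1 and ADI-PEG20 1, and tended to be low where Mef2c was high (r = -0.712, rho = -0.769, permutation p = 0.00934 and 0.00511, adjusted 0.0841 and 0.0460, and r = -0.590 without the 2 farthest libraries). In the other 32 pairs neither coefficient passed after adjustment. Many of these values depended on untreated 1 and ADI-PEG20 1. Without this pair of libraries r went from 0.370 to 0.909 for Myog and Chrna1, from 0.339 to 0.891 for Myod1 and Chrna1, from 0.608 to 0.852 for Myod1 and Des, and from 0.468 to 0.830 for Myf6 and Chrna1. It went from 0.163 to 0.777 for Myog and Myf6 and from 0.559 to 0.781 for Chrna1 and Des, while Myod1 and Myog stood at 0.898. These values without the pair are given as a description.

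The genes most like each of the 9 over the 12 libraries are given here as a description among 14898 genes with a mean of at least 0 log2 CPM. Myog was closest to the embryonic myosin heavy chain Myh3 (r = 0.967, and 0.970 without untreated 1 and ADI-PEG20 1), then Myod1, Cacna1b, Ablim3 and the slow troponin C gene Tnnc1. Without that pair of libraries the other 4 ranked between 9 and 59. Myod1 was closest to Myog, Cacna1b, the cardiac troponin T gene Tnnt2, Ccdc97 and Myh3, but without that pair these ranked between 35 and 354 (r from 0.790 to 0.900). Myf6 was closest to genes of mature fibres: the fast alpha-actinin Actn3 (r = 0.931), titin Ttn (0.930), Hspb6, Ano5 and the calcium release channel Ryr1 (0.919). Myf6 is highest in the pair of libraries rich in mature muscle RNA, and without them Ttn (0.922) and Ano5 ranked 2 and 3, while Hspb6, Actn3 (0.862) and Ryr1 (0.832) ranked 30, 34 and 72. Chrng was closest to Myom3, Mymk, Tnnt2, Chrnd and Ccdc61, with r from 0.852 to 0.881, of which only Chrnd stayed among the 5 closest without that pair. Msc was closest to 4933428G20Rik (r = 0.936), Tmod1, Hhipl1, Dact2 and the tropomyosin gene Tpm2, and Chrna1 to Peg3 (r = 0.965), Cd200, St8sia2, Sytl2 and Gm26816. Myf5 was closest to Tmem171 (r = 0.962), Rbm8a, Osr1, Eif3a and Sms, none of them a sarcomere gene, Mef2c to Shpk (r = 0.964), Gm5345, Mfsd7a, Itga11 and Bmper, and Des to Prrc2a (r = 0.955), Col5a3, Atxn2, Cchcr1 and Lrp8os2. Without that pair, 4 of these 5 stayed among the 5 closest for Mef2c, 3 for Myf5, and 1 each for Msc, Chrna1 and Des.

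**Figure D4:**
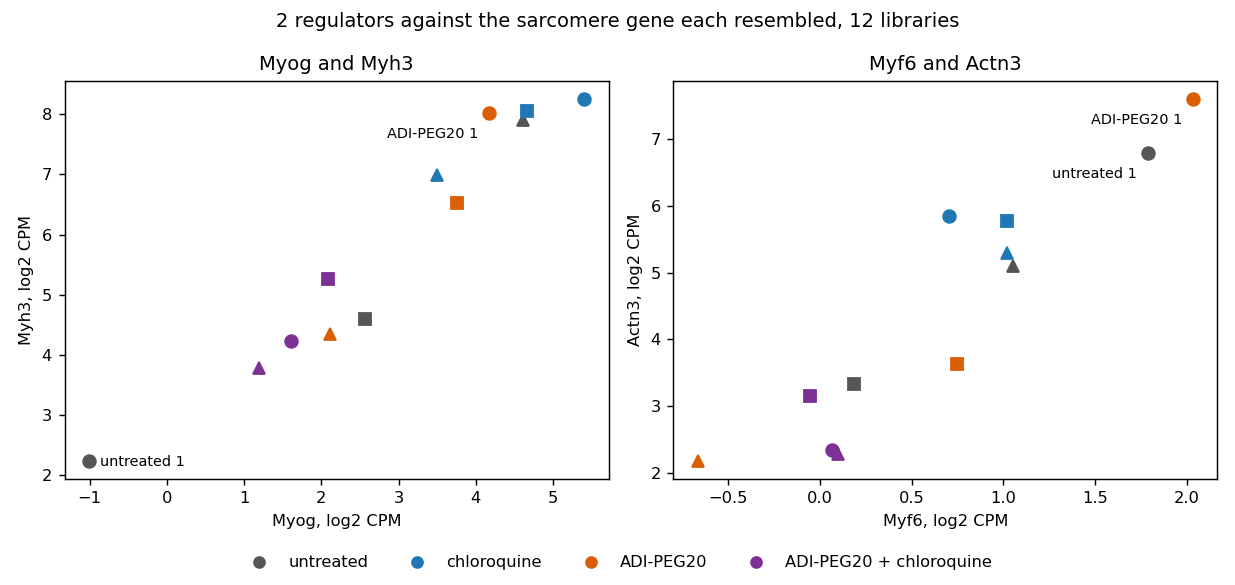
Myog against Myh3 (left) and Myf6 against Actn3 (right) in log2 CPM, 1 point per library coloured by group, with circles, squares and triangles for libraries 1, 2 and 3 of a group. Untreated 1 is the lowest point on the left and the second highest on the right, while ADI-PEG20 1 is high in both.

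Sarcomere genes, which these factors are known to drive, had lower means with both drugs than with chloroquine as well. All 12 measured genes of the embryonic and slow sarcomere had lower means, 11 with no overlap between groups and 10 at an unadjusted p under 0.05, with a median log2 difference of -2.53. Over all genes, 48.6% had lower means, 9.57% were lower with no overlap and 3.67% were lower at an unadjusted p under 0.05. Examples were the neonatal myosin Myh8 at -3.80 (SE 0.86), cardiac alpha-actin Actc1 at -3.73 (SE 0.83) and the slow troponin T gene Tnnt1 at -2.47 (SE 0.59), none of which passed after adjustment (limma adjusted p 0.491 to 0.502). Their summed level was 86.2 to 153 CPM with both drugs, 556 to 1080 with chloroquine, 91.5 to 1180 with ADI-PEG20 and 134 to 846 without treatment. All 22 measured genes of the mature fast fibre had lower means too, 17 with no overlap and 10 at an unadjusted p under 0.05, with a median of -2.50, and their sum was 715 to 1018 CPM with both drugs against 2843 to 3923 with chloroquine. No gene of either list passed after adjustment over all genes. The part of the regulators, or of the number of muscle cells, in these lower levels was not tested.

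The other lists fixed for the pathway are given for the same comparison, with no test between lists. Of 20 measured satellite cell and progenitor genes, 15 had lower means with both drugs than with chloroquine (48.6% of all genes), 3 of them at an unadjusted p under 0.05 (3.67% of all genes), and the median was -0.22. Among them Cdh15, the cadherin of myoblasts, was at -0.84 (SE 0.38) and Itga7, the laminin receptor of muscle, at -0.62 (SE 0.28). Of 20 partners and inhibitors of the helix-loop-helix factors, 11 were lower and 9 higher, with a median of -0.06, with 0 lower and 2 higher (3.11% of all genes) at an unadjusted p under 0.05. Mdfic, which encodes a protein with a MyoD family inhibitor domain, was at 1.45 (SE 0.61, limma adjusted p = 0.696). It ranged from 60.0 to 808 CPM over the 12 libraries, with its highest value in the second library with both drugs. The summed level of this list was also highest in that library, at 1919 CPM. The inhibitor Id3 stood at 0.42 (SE 0.38) in this comparison and at 1.02 (SE 0.38, limma adjusted p = 0.536) with ADI-PEG20 alone against no treatment. Of 19 MEF2 factors and muscle coregulators, 15 were lower, 4 of them at an unadjusted p under 0.05, with a median of -0.36, among them Srf, the serum response factor, at -0.54 (SE 0.18) and the muscle methyltransferase Smyd1 at -2.86 (SE 0.89). Of 11 further genes of the acetylcholine receptor and its synapse, 8 were lower, 3 of them at an unadjusted p under 0.05, with a median of -0.16. In this list Dok7 was at -2.06 (SE 0.54) and Lrp4 at -0.69 (SE 0.23), while Etv5 was higher, at 0.50 (SE 0.23). Chrnb1, the beta subunit gene, was at -0.16 (SE 0.18) against -0.79 for Chrna1. Of 13 adhesion and fusion genes, 10 were lower, 3 of them at an unadjusted p under 0.05, with a median of -0.35. Macrophage markers went the other way: 9 of 10 were higher, at a median of 0.54, and 6 were higher at an unadjusted limma p under 0.05. Over all genes, 48.6% had lower means and 3.11% were higher at an unadjusted p under 0.05. The macrophage sum was 1444 to 1875 CPM with both drugs against 993 to 1375 with chloroquine. Of the adipocyte markers 7 of 9 were higher, 1 at an unadjusted p under 0.05 (Lpl at 1.63, SE 0.33, limma adjusted p = 0.491). Of the Schwann cell and nerve markers 6 of 8 were higher, 2 at that level (among them Pmp22 at 0.80, SE 0.19, adjusted p = 0.502). Of the keratinocyte markers 7 of 8 were higher, 1 at that level (Krt14 at 1.995, SE 0.59, adjusted p = 0.535). The keratinocyte sum was 56.7 to 79.0 CPM with both drugs against 12.7 to 33.8 with chloroquine, the Schwann cell sum 97.5 to 120 against 60.4 to 89.5, and the adipocyte sum 88.9 to 175 against 62.5 to 90.6. Of the fibroblast markers 8 of 10 were lower, with 2 lower and 1 higher at an unadjusted p under 0.05. Their sum was 16323 to 23027 CPM against 27228 to 49710, and Col1a1 alone gave 11084.2 to 42114.5 CPM over the 12 libraries. Endothelial markers were higher in 7 of 10 genes and T cell markers lower in 6 of 8, with 0 genes of either list at an unadjusted p under 0.05. The part of these cell types in the lower levels of the 9 genes was not tested.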

How the data were processed

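RNA from 12 tumor libraries in 4 groups of 3 was analysed. The submitters' processing notes name, with no roles, limma and edgeR, Salmon 0.8.2, STAR 2.5.1a, featureCounts 1.4.6-p5 from Subread, bcl2fastq and the build mm10. The authors deposited log2 CPM for 16386 lines, of which 51 repeat an identifier, leaving 16335 genes. The deposited values are log2 of reads plus 0.5, scaled per library. The worth of 1 read was recovered from them, and 100% of values under 2000 reads came within 0.02 of a whole number. The lowest gene total was 85 reads, so no filter was added. CPM here is recovered reads times the worth of 1 read. The deposited log2 fold changes and p-values are quoted only where named as the authors', and their deposited signed linear fold changes, a score that is negative where lower, were not used.

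Differences were fitted on these log2 CPM with limma 3.58.1 under R 4.3.3, with a trend in expression, all 12 libraries in 1 fit, no covariate and 8 contrasts. Tests were two-sided, adjusted by Benjamini and Hochberg over 16335 genes at 0.05. The fit was tested on simulated data with the same dispersion for every gene. In the real libraries the spread differed widely between genes, so that test does not show how the fit performs on them. Correlations used 100000 permutations, two-sided. The members, lists and tests were chosen with earlier results of these data known. Named genes are all members, up to 4 genes per list with the smallest p for ADI-PEG20 pooled over chloroquine, and the 5 genes most like each member. Ckm, Myh4, Myh1, Myh3, Mymk, Chrnd, Gm9947 and Gm26917 were named after their values were seen. Alternatives were another scaling, 2 added reads, a filter on low genes, voom weights, library weights, a replicate block, fits of the compared libraries alone, each library left out and, chosen after seeing the data, untreated 1 and ADI-PEG20 1 left out together. The deposited gene set results were not used.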

Additional observations from a re-analysis of the deposited data

How the results depend on the processing

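The labels' replicate numbers were not treated as pairs, because the labels do not say that they pair libraries. Deviations from the group means still followed the numbers in part. Over the 18 same-numbered pairs of libraries the correlation of these deviations ran from -0.05 to 0.20, and 9 exceeded 0.1. For libraries that differed in group and number it ran from -0.24 to 0.19. For 9 of 12 libraries the best partner shared their number. The p-values above leave this out, and whether the numbers stand for a shared batch was not tested. With the number as a replicate block, 8 genes passed for both drugs against untreated (4 higher, 4 lower) and 31 for ADI-PEG20 pooled over chloroquine states (21 higher, 10 lower), against 0 without it, and none of the 9 genes passed. Library weights gave 15 genes for both drugs against chloroquine and 98 for ADI-PEG20 pooled. The 6 libraries of both drugs against chloroquine fitted alone gave 72 (15 higher, 57 lower), where Myod1, Myog and Des passed. Leaving out untreated 1 and ADI-PEG20 1 together gave 6 genes for both drugs against untreated and 24 for ADI-PEG20 pooled. Leaving out 1 library gave 0 to 1 genes for ADI-PEG20 against untreated (1 without untreated 3), 0 to 1 for both drugs against chloroquine (1 without ADI-PEG20 3) and 0 to 19 for ADI-PEG20 pooled. No setting gave a pass for a member except that fit of 6 libraries.

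None of the differences that turned sign had passed. Without untreated 1 and ADI-PEG20 1 together, these turned: Myod1 -1.28, Myog -0.65 and Chrng -1.82 for ADI-PEG20 against untreated, Myf6 0.30 for chloroquine against untreated, Mef2c 0.13, Chrna1 -0.036 and Des 0.044 for both drugs against ADI-PEG20, Des 0.30 for the interaction, and Myf5 -0.0084, Myod1 -0.41, Myog -0.18 and Myf6 0.15 for chloroquine pooled. With library weights, these turned: Myf5 -0.012 for chloroquine pooled, Myf6 0.087 for the interaction, Mef2c 0.10 for both drugs against ADI-PEG20, Chrng -0.28 for ADI-PEG20 against untreated and Des 0.029 for chloroquine against untreated. Voom weights turned Myf5 for chloroquine pooled, to -0.015. Leaving out each library in turn also turned some signs. For both drugs against chloroquine, the ranges were -0.46 to 0.0075 (Myf5). For chloroquine pooled over ADI-PEG20 states, the ranges were -0.12 to 0.30 (Myf5), -0.68 to 0.53 (Myod1), -0.39 to 1.01 (Myog), -0.040 to 0.21 (Chrna1), -1.35 to 0.52 (Chrng). For ADI-PEG20 against untreated, the ranges were -0.75 to 1.66 (Myod1), -0.24 to 2.57 (Myog), -0.97 to 0.38 (Myf6), -0.82 to 0.052 (Msc), -1.16 to 2.26 (Chrng). For both drugs against untreated, the ranges were -2.30 to 0.10 (Myod1), -1.95 to 0.85 (Myog). For chloroquine against untreated, the ranges were -0.51 to 0.30 (Myf6), -0.13 to 0.49 (Msc), -0.076 to 0.32 (Chrna1), -0.25 to 0.26 (Des). For the interaction, the ranges were -1.26 to 0.088 (Myf6), -0.34 to 0.16 (Chrna1), -1.23 to 0.088 (Des). For both drugs against ADI-PEG20, the ranges were -0.27 to 0.13 (Mef2c), -0.21 to 0.29 (Chrna1), -1.28 to 0.044 (Des). The cause of each turn was not tested. Another scaling moved the median of all genes by at most 0.01. Scarce genes such as Myf6 and Chrng are limited by their few reads.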
